A study of Arabidopsis thaliana with 5 samples.

Results

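The regions bound by the transcription factor BLUEJAY (BLJ) in whole Arabidopsis thaliana roots are described here across genes. Every row of the BLJ region list was taken, which gave 24229 of the 46214 regions analysed for the study's 2 factors. The plants were of the Columbia ecotype, grew on plates without added treatment, and expressed BLJ fused to yellow fluorescent protein (YFP) in the ground tissue, per the labels. Formaldehyde-fixed roots were sheared, and the fusion was recovered with its DNA by an antibody against GFP, a protein closely related to YFP, before sequencing (ChIP-seq). The study holds 2 BLJ libraries, 2 libraries of a second factor that are not used here, and 1 library of wild-type roots carried through the same steps. The sources used here give neither the promoter driving the fusion, nor the number of lines, nor the age of the plants. A table of the wild-type library was not analysed here, and whether the values were already set against that library is not given.

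BLJ is a C2H2 zinc finger protein of the INDETERMINATE DOMAIN (IDD) family, and is among the members called BIRD proteins. BIRD proteins interact with the GRAS-family regulators SHORT-ROOT (SHR) and SCARECROW (SCR) and help to set the fate of the ground tissue, the root layers that form cortex and endodermis. The endodermis later builds a barrier of Casparian strips and suberin.

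Each region carries a chromosome, a start, an end, 2 density values and an irreproducible discovery rate (IDR). Density is the authors' signal of the immunoprecipitate over a region, 1 value per replicate. The order of the replicates is not given, so the values are called first-listed and second-listed. IDR runs upward from 0 and is low where a region is taken as reproducible between the replicates. Regions were ranked by score, which averages the log2 of both densities, and a percentile is a rank within this list. With 1 list made from both replicates there is no spread to test against, and both values are given instead. Read depth per library is unknown.

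BLJ regions were spread evenly over the 5 chromosomes and thinly over their gene-poor middles. Chromosome 1 held 6241 regions, chromosome 2 held 3903, chromosome 3 held 4785, chromosome 4 held 3736 and chromosome 5 held 5564. Regions covered between 26.5% of chromosome 2 and 26.8% of chromosome 4, measured to the last annotated gene, and their number per megabase ran from 198 on chromosome 2 to 206 on chromosome 5. Annotated protein-coding genes covered 49.6% of chromosome 2 and 56.5% of chromosome 1, the lowest and highest of the 5. Over the whole list the first-listed density had a median of 1.60 and the second-listed density one of 1.38.

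Within chromosomes the cover was far from even. Over 116 windows of 1 Mb, the share covered ranged from 0.417% to 49.9% with a median of 27.6%. It rose and fell with the share of the window in genes, with a Spearman correlation of 0.910 across the 116 windows, which share the same libraries. The first-listed density ran the other way, with a correlation of -0.786 between cover and the window's median, while the second-listed density showed almost none (0.0211). In the 15 windows covered to less than 5%, 330 regions had median densities of 1.80 and 1.41, and 55.8% of them overlapped a protein-coding gene. Elsewhere the medians were 1.60 and 1.38 and the share was 90.8%.

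Most regions were about as long as a short gene. The median width was 1015 bp, the quartiles were 666 and 1636 bp, and the extremes were 139 and 22956 bp. The median gap to the next region was 1492 bp. Width went with the second-listed density (Spearman 0.456 across all regions) far more than with the first-listed one (0.139). In 2834 regions under 500 bp the median densities were 1.49 and 1.23, and in 594 regions of 4000 bp or more they were 1.61 and 1.62. The first-listed value was therefore the higher in 98.0% of the narrowest regions and in 45.8% of the widest. Of regions of 4000 bp or more, 37.2% ranked in the highest 10% by the second-listed value and 3.87% by the first-listed value.

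**Figure D1:**
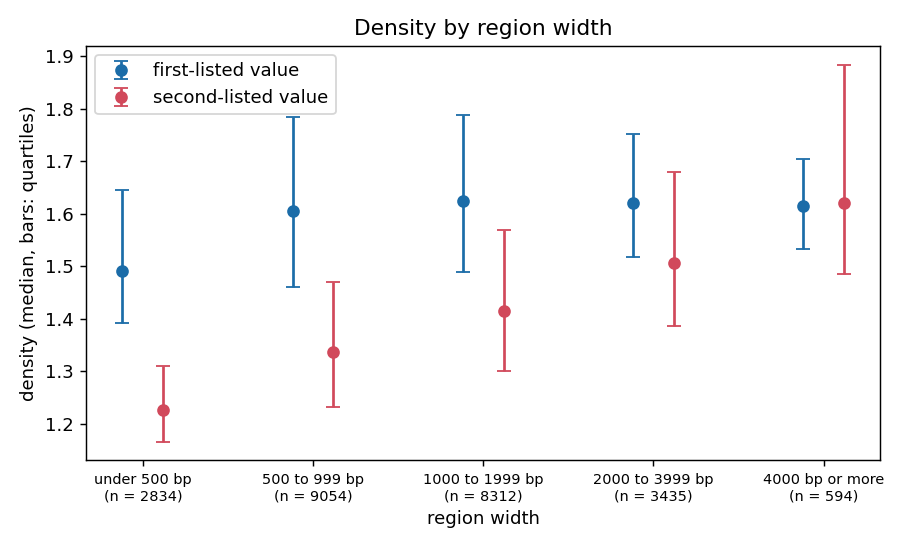
Density (vertical axis, authors' signal) of BLJ regions in 5 classes of width, with points for the median and bars for the quartiles of regions. The second-listed median climbs from 1.23 in the narrowest class to 1.62 in the widest, while the first-listed median stays between 1.49 and 1.62.

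Outside the block around BLJ's own gene, the widest regions ran over neighbouring genes. A region of 12116 bp on chromosome 5 (21699460 to 21711575) held GLT1, an NADH-dependent glutamate synthase, and ACBP1, an acyl-CoA-binding protein, with densities of 1.70 and 2.14. One of 11127 bp on chromosome 4 (17998372 to 18009498) overlapped 5 genes, among them AT4G38480 and STY46, a protein kinase, with densities of 1.53 and 2.27. A region of 10271 bp around CYSC1, a mitochondrial enzyme of cyanide detoxification, also held the aquaporin gene PIP1A and had densities of 1.79 and 1.70. Another of 9775 bp held ARF2, an auxin response factor, and HSFB2A, a heat shock factor, with densities of 1.57 and 1.79. None of these 4 was among the 30 genic targets of highest score.

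Regions lay mainly on genes. Of 24229 regions, 21889 (90.3%, 95% Wilson interval 89.96 to 90.71, counting error only) overlapped a protein-coding gene by at least 1 bp, and 83.4% had their midpoint inside one. On average 80.8% of the width of a region lay in protein-coding genes. Exactly 1 such gene was overlapped by 69.5% of regions and 2 or more by 20.8%. Regions on genes were wider than those between genes, with medians of 1077 and 639.5 bp, and had a lower first-listed density (1.60 against 1.69), while the second-listed medians were both 1.38. Genes of any kind, including pseudogenes and non-coding RNA genes, were overlapped by 94.1% of regions, and 1419 regions overlapped none.

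The share on genes fell toward the top of the list. In the lowest 10% by score 92.2% of regions overlapped a protein-coding gene, and in the highest 10% this was 81.7%. Of the 100 highest regions, 62 overlapped a protein-coding gene, 16 overlapped only genes of another kind and 22 overlapped no annotated gene. The highest of all, a region of 228 bp on chromosome 3 (11686244 to 11686471), lay away from protein-coding genes and had densities of 14.6 and 7.19.

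Looked at from the genes, 19495 of 27444 protein-coding genes were overlapped, which is 71% of them. A single region overlapped 13010 genes, 2 regions overlapped 5113, and 1372 genes had 3 or more, up to 9 in AT4G39420. The median overlapped gene was covered over 59.1% of its length, and 3972 were covered to at least 90%. Longer genes were overlapped more often, with 48.3% among the shortest (median length 872 bp) and 84.5% among the longest (3930 bp) when genes were split by the quartiles of length. With so many genes overlapped, being overlapped tells little of a gene, so genes were also described by whether a region over them ranked in the highest 10%, here called dense. By score, 2628 genes (9.58% of all) were dense. By the first-listed value alone the share was 8.02%, and by the second-listed value alone it was 11.1%. The limit by score is a geometric mean density of 1.77. The last region inside it had 1.76883 and the first outside had 1.7688.

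The 2 densities ordered the regions differently. Across all regions their Spearman correlation was 0.248 and the Pearson correlation of the log2 values was 0.264, as descriptions over regions that share 2 libraries. The first-listed value was the higher in 80.1% of regions, and the median ratio of second to first was 0.862 with quartiles of 0.772 and 0.969. Most values lay in a narrow range, with quartiles of 1.47 and 1.76 for the first-listed and 1.26 and 1.53 for the second-listed density. The 2 values of a region lay within 1.5-fold of one another in 92.4% of regions and within 2-fold in 99.5%. With so narrow a range, these shares say little about agreement between the replicates. Of 113 regions beyond 2-fold, the first-listed value was the higher in 91 and the second-listed in 22. The ratio was lowest, at 0.0947, in a region between genes on chromosome 3 (3587478 to 3588859) with densities of 13.6 and 1.29, whose nearest protein-coding gene was PP2CA, a phosphatase acting in abscisic acid signalling. It was highest, at 3.12, in a region of the chromosome 2 stretch at AT2G07835, described further on.

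**Figure D2:**
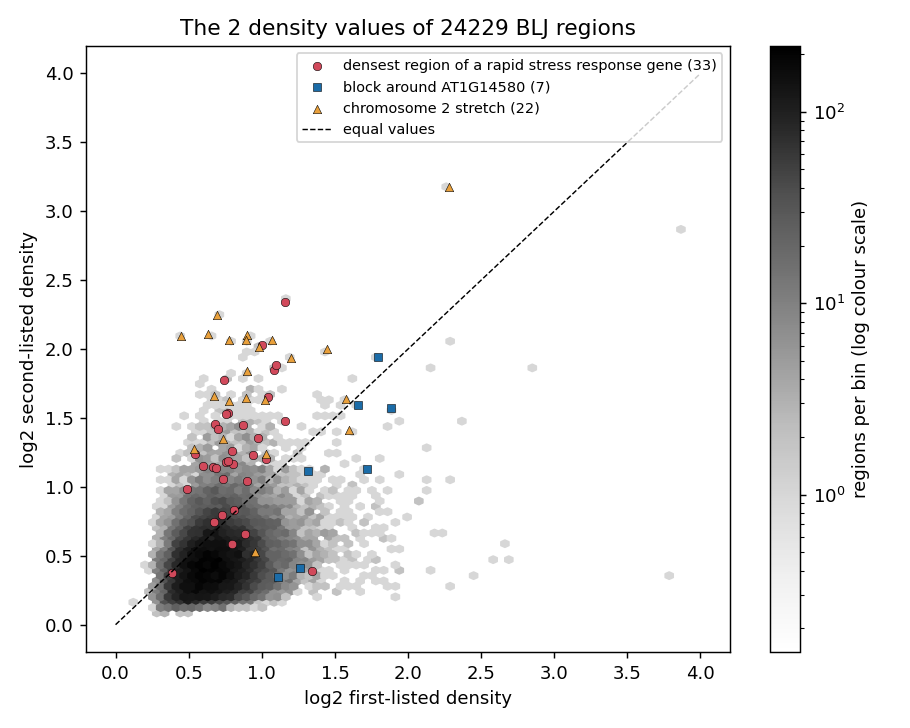
First-listed (horizontal) against second-listed density (vertical) of 24229 BLJ regions on log2 axes, with shading for the number of regions per bin and a dashed line of equal values. Coloured points mark the densest region of each of 33 rapid stress response genes, most of which lie above the line, the 7 regions of the block around AT1G14580, and the 22 regions of a stretch of chromosome 2.

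Most regions at the top by one value were not at the top by the other. The 100 highest regions by each value had 9 in common (9% of each, where 100 regions are 0.413% of the list). The highest 500 shared 48 (9.6%, where 500 are 2.06% of the list), the highest 1000 shared 126 (12.6%, beside 4.13%) and the highest 2000 shared 374 (18.7%, beside 8.25%). Regions in the highest 10% by both values numbered 484, or 20.0% of each such set. At the other end, 527 regions were in the lowest 10% by both. The Spearman correlation differed by width, at 0.515 among regions under 500 bp, 0.215 in the next class, 0.134 and 0.131 in those from 1000 to under 4000 bp, and 0.301 among the widest.

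A low IDR marked both ends of the density scale. It was at or below 0.05 in 1990 regions (8.21%), with a median of 0.157 over the list. In the lowest 10% by score, 606 of 2423 regions had such an IDR, and in the highest 10% there were 511 of 2423 (21.1%). In each of the deciles between them the share was between 1.61% and 7.30%. Among regions with this IDR the 2 densities had a Spearman correlation of 0.800. IDR is itself a measure of reproducibility between the replicates, so this describes the selection. Regions of near-equal density ranks could differ in IDR. The densest region of WRKY33 had an IDR of 0.0275 at percentiles of 67.4 and 99.7. That of ZAT6 had 0.134 at percentiles of 65.3 and 99.7. A low IDR alone did not mark a dense region in this list.

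**Figure D3:**
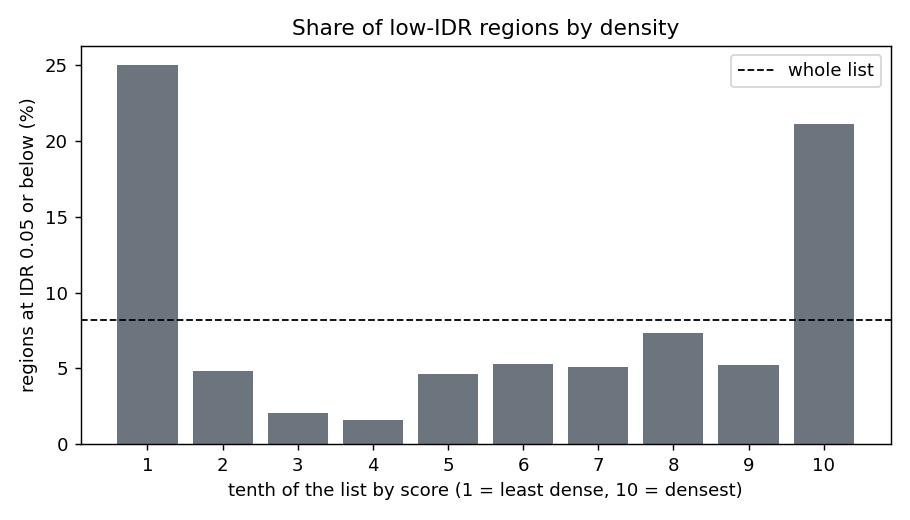
Percent of BLJ regions at an IDR of 0.05 or below (vertical axis) in each decile of the list by score, from least dense at the left to densest at the right, with the whole list (8.21%) as a dashed line. The bars for the lowest and highest decile stand above all others, the latter at 21.1%.

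Local features of the list put some genes near the top, and they are kept apart from the rest. Around AT1G14580, the gene of BLJ itself, 7 regions covered 94.7% of 70.6 kb on chromosome 1 (4956801 to 5027368) and overlapped 18 protein-coding genes. Their first-listed density ran from 2.16 to 3.69 and their second-listed density from 1.27 to 3.84. The other feature was a stretch of chromosome 2 (3232264 to 3502271) with 22 regions over or near 17 protein-coding genes, at median densities of 1.86 and 3.70. The second-listed value was the higher in 20 of these 22, so the first-listed was the higher in 9.09% of them, against 80.1% in the list as a whole. Chromosome 2 of Columbia carries a large insertion of mitochondrial DNA near its centromere, and genes in such copies are uncertain because reads can be shared with the mitochondrial genome. The block held 4 of the 100 highest regions and the stretch held 14.

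Of the 30 genic targets of highest score, 3 lay in the block, 6 in the stretch of chromosome 2 and 21 elsewhere. The second-listed value was the higher in 17 of the 30 and the first-listed in 13. Both values were in the highest 10% for 24 of them and in the highest 1% for 11. For 17 of the 30 at least 90% of the gene lay inside the region. The table of names had no symbol for 17 of them, so these appear by locus only.

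**Figure D4:**
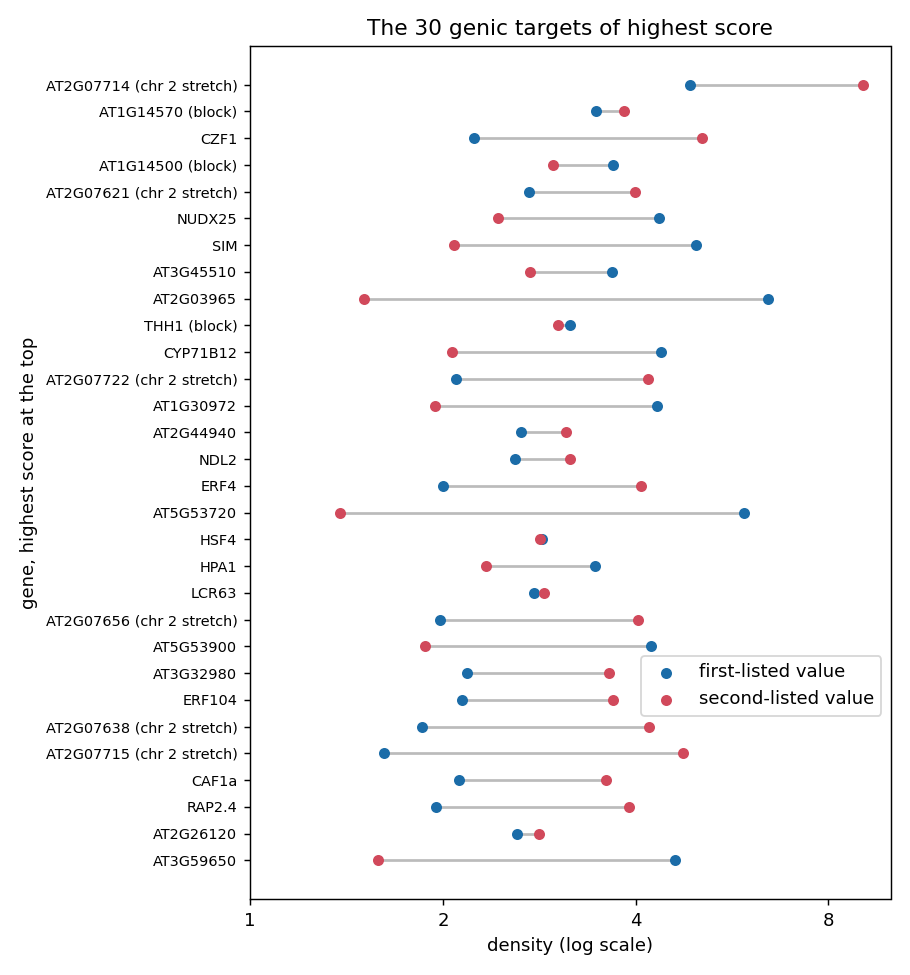
Density (horizontal axis, log scale) of the region behind each of the 30 genic targets of highest score, with 1 point for each of the 2 values joined by a line. HSF4 and LCR63 have nearly equal values, SIM and AT2G03965 are far higher in the first-listed value, and CZF1 and ERF4 in the second-listed value.

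Some targets were high by both values. HSF4, also called HSFB1, encodes a class B heat shock factor, and its region on chromosome 4 (17439657 to 17442111) had densities of 2.86 and 2.83 and contained 98.0% of the gene. LCR63, of the low-molecular-weight cysteine-rich family, had 2.78 and 2.88 on chromosome 4 (14696023 to 14697246). NDL2, an N-MYC downregulated-like protein, had 2.60 and 3.16 on chromosome 5 (3798441 to 3799575), where the region reached only 4.41% of the gene. In each of these the values were close to one another and in the highest 1% of the list.

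NUDX25, a nudix hydrolase, was high by both but unequal, with 4.35 and 2.44 on chromosome 1 (10581074 to 10582126). JAZ5, a repressor of jasmonate responses, had 2.54 and 2.66, but its region (chromosome 1, 5957485 to 5958832) overlapped the gene by 27 bp. The loci AT2G44940 (2.65 and 3.11), AT3G16280 (2.63 and 2.66) and AT2G26120 (2.61 and 2.83) had values within 1.5-fold of one another, and over 90% of each lay inside its region. Ranking genes by the lower of the percentiles of both values brings these to the front. HPA1, an enzyme of histidine synthesis, had 3.45 and 2.33.

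Genes highest by the first-listed value had narrower regions as a set than those highest by the second-listed value. The median widths were 1164 and 2667 bp for the 100 highest of each. SIM, which inhibits cyclin-dependent kinases and is known for endoreduplication in leaf hairs, reached 4.96 and 2.08 on chromosome 5 (1266522 to 1268176). CYP71B12, a cytochrome P450, had 4.38 and 2.06 on the same chromosome (8668688 to 8669499), over 40.5% of the gene. AT2G03965 had 6.44 and 1.504, and AT5G53720 had 5.90 and 1.38. The first-listed density was the outstanding one in all 4, and only SIM and CYP71B12 were also in the highest 10% by the other.

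Further down the ranking by the first-listed value stood genes named here after their values were seen. LTI78, also called RD29A and induced by cold and drought, had 3.83 and 1.68. WRKY28, a WRKY transcription factor, had 3.79 and 1.15. ICK6, also called KRP3, acts like SIM on cyclin-dependent kinases and had 3.77 and 1.30. The glucosinolate transporter gene GTR1 had 3.55 and 1.52. In none of these 4 was the second-listed value in the highest 10%.

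Genes far higher by the second-listed value had wider regions over whole genes, and 11 of the 100 highest by this value were on the list of rapid stress response genes described further on. By score 7 of 100 were and by the first-listed value 0, while the list holds 0.120% of all genes. That list was chosen with earlier results of these data known. CZF1, a CCCH zinc finger protein induced by salt, had 2.23 and 5.08 in a region of 2692 bp (chromosome 2, 16771997 to 16774688). ERF4, a repressor of the ethylene response factor family, had 2.00 and 4.08 in 5085 bp (chromosome 3, 5121101 to 5126185). RAP2.4, also called WIND1 and known for wound-induced dedifferentiation, had 1.95 and 3.899 in 4193 bp (chromosome 1, 29363854 to 29368046). Each of these regions held all or nearly all of the gene.

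The same shape was seen at further genes. ERF104, an ethylene response factor, had 2.14 and 3.68 (chromosome 5, 24766230 to 24767737), and CAF1a, a deadenylase that shortens mRNA tails, had 2.12 and 3.60 (chromosome 3, 15951853 to 15953470). NUDT4, a nudix hydrolase, had 1.80 and 3.84, and TET8, a tetraspanin membrane protein, had 1.51 and 3.41, both in regions over the whole gene. JAZ1, like JAZ5 a repressor of jasmonate responses, had 1.67 and 3.42 in a region of 7951 bp that overlapped 3 further genes. For JAZ1 and TET8 the first-listed value was an ordinary one, at percentiles of 62.7 and 33.3.

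The sets of 100 genes ranked by each value differed in these features as a whole. The median width of the region was 1164 bp by the first-listed and 2667 bp by the second-listed value, and the median share of the gene inside it was 31.9% and 100%. Transcription factors, taken by name, made up 3 of the 100 by the first-listed value, 16 by the second-listed and 8 by score, while they are 2.54% of all genes. Both sets had 8 genes in common, which were AT2G07621 and AT2G07714 in the chromosome 2 stretch, AT1G14500, AT1G14570 and THH1 in the block, and AT3G45510, HSF4 and LCR63.

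A list of 33 rapid stress response genes held ERF, WRKY, CBF and ZAT factors with calcium sensors and kinases. It was chosen with earlier results of these data known, so its counts are a description and no test. By score 26 of the 33 were dense, where 9.58% of all genes were. All 33 were overlapped, each by a different densest region, against 71% of all genes. By the second-listed value 28 were dense, and by the first-listed value 9 were. Over the 33 genes the first-listed density ran from 1.31 to 2.54 with a median of 1.73, and the second-listed from 1.29 to 5.08 with a median of 2.30. The second-listed value was the higher in 29 of 33. Its percentile was above that of the first-listed value in 31, while over all overlapped genes this was so in 55.7%.

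Some members of the list are given here one by one. WRKY40, a repressor in defence, had 2.06 and 3.15, and WRKY33, a regulator of camalexin synthesis, had 1.71 and 2.90. The zinc finger genes ZAT10 and ZAT12 had 1.60 and 2.74, and 1.46 and 2.36. CBF2 and CBF3, which activate cold-responsive genes, had 1.63 and 2.68, and 1.75 and 2.24. CBF1 had 1.66 and 1.74 and was not dense by score. MPK3, a mitogen-activated protein kinase, had 1.69 and 2.27, and CML24, a calmodulin-like protein, had 1.61 and 2.20. In all of these the second-listed value was the higher.

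The first-listed value was the higher in 4 members. These were CBP60G, a regulator of salicylic acid synthesis, with 2.54 and 1.31, and the WRKY genes WRKY46 (1.85 and 1.58), WRKY18 (1.73 and 1.503) and WRKY53 (1.31 and 1.29). Regions of the list were wide, with a median of 2692 bp against 1379 bp over all overlapped genes, and 27 of 33 genes were covered to at least 90%, against 14.5% of all genes. Among regions from 2000 to under 4000 bp in general, 20.1% were in the highest 10% by the second-listed value and 6.75% by the first-listed. The part of width in the count of dense members was not tested. An IDR at or below 0.05 was found for 14 of the 33, and for 7.83% of all overlapped genes.

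Root tissue lists held fewer dense genes than the stress list, and all these lists were chosen with earlier results of these data known. Of 15 genes of the endodermis barrier, 14 were overlapped (93.3%, beside 71% of all genes) and 5 were dense by score (33.3%, beside 9.58%). By the second-listed value 6 were dense (40%, beside 11.1%) and by the first-listed value 1 (6.67%, beside 8.02%). The IDR of the 5 genes dense by score ran from 0.0948 to 0.238, so none was at or below 0.05. Of the 15 genes 8 were covered to at least 90%, beside 14.5% of all genes. In 12 of the 14 overlapped genes the second-listed percentile was above the first-listed one, beside 55.7% of all overlapped genes. The member dense by the first-listed value was ESB1, a dirigent protein of the Casparian strip, with 3.42 and 1.64 on chromosome 2. Its region of 4515 bp held the whole gene and also overlapped AT2G28671 and AT2G28680. ASFT, a feruloyl transferase of suberin, had 1.92 and 1.93, and GPAT5, an acyltransferase of suberin synthesis, had 1.57 and 2.03.

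SGN1 (AT1G61590), a kinase that positions the Casparian strip, had 1.80 and 1.95 in a region that also overlapped the ribosomal protein gene RPL3B. RBOHF, the NADPH oxidase that supplies reactive oxygen for lignin, had 1.69 and 1.96. CASP1 and CASP4, scaffold proteins of the strip, were dense by the second-listed value alone, with 1.501 and 1.79, and 1.46 and 1.75. CASP2 (1.57 and 1.45) was overlapped without being dense, and CASP5 was not overlapped.

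Of 14 ground tissue regulators, 12 were overlapped (85.7%, beside 71% of all genes), and 2 were dense by score (14.3%, beside 9.58%). Those were AT1G14580, inside the block, and SCR, which had 1.85 and 1.74 in a region of 3688 bp over 87.6% of the gene. The BIRD genes AT3G45260 (BALD IBIS, 1.84 and 1.68) and NUC (NUTCRACKER, 1.87 and 1.58) came next. MGP (MAGPIE) had 1.58 and 1.42, JKD (JACKDAW) 1.65 and 1.445, and SHR 1.54 and 1.39. By density these last 3 were near the middle of the list, at score percentiles of 49.9, 61.1 and 41.5.

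By the second-listed value alone, AT5G41920 (SCL23, a relative of SCR) and IDD4 were also dense, with 1.52 and 1.78, and 1.44 and 1.83. MYB36, a regulator of Casparian strip genes, had 1.47 and 1.67. RBR1, the retinoblastoma-related protein that restrains cell division, had 1.52 and 1.67 and was overlapped by 4 regions. SCL3, a GRAS protein of gibberellin signalling, had 1.49 and 1.34. CYCD6;1, a D-type cyclin, and HSFB4 (SCHIZORIZA) were not overlapped.

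Lists of the other root tissues held few dense genes. Of all genes 71% were overlapped and 9.58% were dense by score, and in lists this short counts near those shares are no result about the members. In the epidermis and root hair list 9 of 11 were overlapped and none was dense by score. EGL3, a bHLH factor, was dense by the second-listed value alone (1.63 and 1.74). In the stele list 9 of 14 were overlapped, and SUC2, the sucrose transporter of phloem companion cells, was dense by score with 2.72 and 1.20. SUC2 was dense by the first-listed value but not by the second-listed one, which was at a percentile of 13.5. Its IDR was 0.268. AHK4, a cytokinin receptor, was dense by the second-listed value (1.68 and 1.81), and PHB, a class III HD-ZIP factor, by the first-listed value (1.96 and 1.29).

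Among 10 markers of the quiescent centre and stem cells 6 were overlapped (60%, beside 71% of all genes) and none was dense by either value. WOX5, PLT1, PLT2 and BBM, which maintain the stem cell niche, were not overlapped. Of 4 root cap genes BRN1 alone was overlapped, with 1.68 and 1.47. With lists of 4 to 15 genes, 1 gene moves a share widely. Whole roots hold all these tissues, while the labels place the fusion in the ground tissue.

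**Figure D5:**
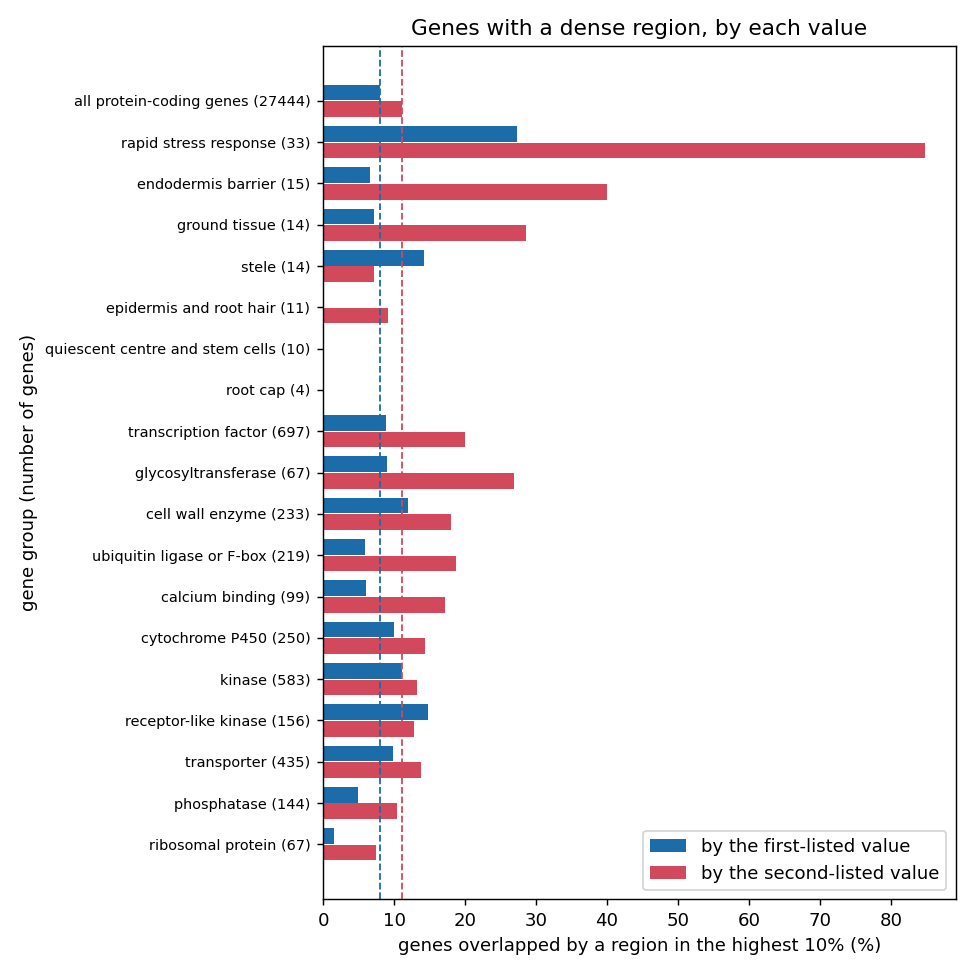
Percent of the genes of a group (horizontal axis) overlapped by a region in the highest 10% by the first-listed or the second-listed value, with dashed lines for all protein-coding genes at 8.02% and 11.1%. The number of genes is in brackets, and the rapid stress response list stands out by the second-listed value. The stress and tissue lists were chosen with earlier results of these data known.

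Classes drawn from gene names were described in the same way. They hold members of the stress list, such as CZF1 and WRKY40, which were not taken out. The 16198 genes with no name beyond the locus tag could enter none of them. Of 697 transcription factor genes, 541 were overlapped (77.6%, beside 71% of all genes) and 116 (16.6%) were dense by score, beside 9.58% of all genes. By the second-listed value 19.9% were dense, beside 11.1% of all genes. By the first-listed value 8.90% were, close to the 8.02% of all genes. Glycosyltransferases, with 13 of 67 dense by score, were dense in 26.9% by the second-listed and in 8.96% by the first-listed value. The class of ubiquitin ligases and F-box proteins was dense in 18.7% and 5.94%, and that of calcium-binding proteins in 17.2% and 6.06%, in the same order. Words in names also drew in other genes, such as the ubiquitin gene UBQ5 in the former and the cation exchanger gene CAX3 in the latter.

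Other classes were more even between the values, where 11.1% of all genes were dense by the second-listed and 8.02% by the first-listed value. Of 250 cytochrome P450 genes 36 (14.4%) were dense by the second-listed and 25 (10%) by the first-listed value. Receptor-like kinases were dense in 12.8% and 14.7%, and so stood further above all genes by the first-listed value. By score 8.97% of them were dense, beside 9.58% of all genes, and 15.6% of cytochrome P450 genes. The share by score was 22.9% of 35 peroxidase genes, 16.3% of 233 cell wall genes and 15.8% of 57 heat shock genes. It was 4.86% of 144 phosphatase genes and 7.79% of 77 photosynthesis genes. Of 67 ribosomal protein genes 55 were overlapped (82.1%, beside 71% of all genes) and 3 were dense by score (4.48%, beside 9.58%). Of 88 defensin-like genes, which are short with a median length of 625 bp, 21 were overlapped (23.9%) and 4 were dense by score (4.55%). Genes with no name beyond the locus tag, 16198 in number, were dense in 8.45%.

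The densest gene of each class was higher in the second-listed value in some classes and in the first-listed in others. PAP21, a purple acid phosphatase, had 1.60 and 3.09, AGP17, an arabinogalactan protein of the cell wall, had 1.86 and 3.02, and UPL2, a ubiquitin ligase, had 1.95 and 2.501. HTB9, a histone H2B, had 1.61 and 2.29, RPL12-C, a ribosomal protein, had 2.30 and 2.48, and CAMBP25, a calmodulin-binding protein, had 1.96 and 2.15. In these 6 the second-listed value was the higher.

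The first-listed value was the higher at PPCK1, a kinase of phosphoenolpyruvate carboxylase, with 2.82 and 1.99, and at PERK14, a receptor-like kinase, with 2.27 and 1.91. It was so too at UGT71C2, a glycosyltransferase, with 2.51 and 1.87, and at CAB1, a chlorophyll-binding protein, with 2.65 and 1.60. Leaders of further classes were CZF1, CYP71B12, HSF4 and LCR63, described above. The densest transporter and peroxidase genes, AT1G14560 and PER4, lay in the block around AT1G14580. PPCK1 shared its region with AT1G08645 and CJD1.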

How the data were processed

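Immunoprecipitated DNA from roots was amplified, tagged with Nextera and read from a single end over 50 bp, per the labels' protocols. CASAVA, Bowtie and build TAIR9 are named in the submitters' processing notes, with no versions. Not given in the sources used here are the peak caller, the normalization and how the control entered. The authors deposited 1 list of regions per factor, made from both replicates. Per the file headers it gives a density signal with 2 values per region and an IDR, which has the scale of a p-value or q-value. Sample sheets deposited with the libraries name lane 5 for BLJ replicate 1 and lane 2 for BLJ replicate 2, while the labels speak of a single lane.

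The log2 of both densities was averaged to the score, and percentiles, Spearman correlations and overlaps with genes (at least 1 bp) were computed, with no test. Genes came from an NCBI table of assembly TAIR10.1 with no strand or products. Its fit to the regions was checked by shifting them: 83.4% of midpoints lay in genes unshifted, and at most 76.6% when shifted by 500 bp or more. All coordinates come from the deposited regions, on TAIR9. Classes were planned from product names and drawn from symbols and synonyms instead. They miss members with other names and take in some genes that share only a word with the class. Positions along genes and binding motifs were not analysed here, for lack of strand and sequence.

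Named genes were taken by a rule, though the text names only some of them: the 30 genic targets of highest score, 15 by the lower percentile, all ground tissue genes, up to 4 per other list, the top gene of each class, and the 5 most extreme regions by ratio, width and IDR. Genes past these were chosen after their values were seen. The members and all lists were chosen with earlier results of these data known. Alternatives were each value alone, the lower percentile, other overlap rules, limits on IDR and density, and leaving out the block or the chromosome 2 stretch. Overlap and ranking code was tested on simulated data. The work used scipy 1.17.1, numpy 2.4.6 and pandas 2.3.3 under Python 3.11.15, with matplotlib 3.10.9 for figures.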

Additional observations from a re-analysis of the deposited data

How the results depend on the processing

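Of the 100 strongest genic targets, 40 to 56 were shared with a ranking by a single value, and 41 with a ranking by the lower percentile. With a single value 62 to 139 transcription factors were dense in place of 116, and 9 to 28 stress genes in place of 26. The lowest count came from the first-listed value each time, and the cause was not tested. The share of regions in genes was 90.3%, and 81.4% when 50% of the region had to lie in a gene, 83.4% by midpoint, 88.7% at an IDR of 0.05 or below and 89.9% at 0.1 or below. The share of genes overlapped was 71.0%, and 80.8% within 1000 bp, 45.3% with the denser 50% of regions and 7.79% at an IDR of 0.05 or below, where fewer regions remain. At that IDR chromosome 1 held 24.5% of regions in place of 25.8%, and the correlation of the values was 0.800 in place of 0.248. Leaving out the chromosome 2 stretch, an alternative chosen after seeing the data, kept 89 of the 100 targets and gave a correlation of 0.248. Leaving out the block kept 96. No paired analysis was possible because both replicates are in 1 list and no test was made. Motif and position alternatives were not run. Counting intervals do not cover replicate error, and read depth is unknown.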
